A study of Homo sapiens with 6 samples.

Results

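The miR-26 family was followed in the small RNA of a melanoma culture through the 4 members hsa-miR-26a-5p, hsa-miR-26a-2-3p, hsa-miR-26b-5p and hsa-miR-26b-3p, which are 4 of the 1596 mature miRNAs counted in the deposited table and were taken by name. The libraries fall into 2 groups of 3. Cells of the first group received RSL3, which inactivates the lipid peroxide-clearing enzyme GPX4 and thereby triggers ferroptosis, an iron-dependent form of cell death. Cells of the second received RSL3 together with IFN-γ, the cytokine by which T cells sensitize tumor cells to this death, and both treatments lasted 24 hours. The sample labels give the cells as A2058, whereas the text of the study gives A375, and both are established human melanoma cell lines. All libraries came from RSL3-treated cells, with no untreated culture, so the comparison asks only what changed when IFN-γ was added to RSL3. No source says whether the 3 libraries of a group were separate cultures, and p-values measure the spread between these samples, which may be technical.

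Libraries held 4383940 to 6513382 counts. As markers of the melanocyte lineage, hsa-miR-211-5p ran from 270 to 388 CPM (a miRNA's counts as a rate per library total, scaled between libraries by TMM factors) over the 6 libraries, and hsa-miR-514a-3p from 50.1 to 76.0 CPM under RSL3 and from 14.5 to 30.4 CPM under the combined treatment. By the edgeR test used below, hsa-miR-514a-3p fell (log2 fold change -1.38, adjusted p = 0.0374), whereas hsa-miR-211-5p did not pass (0.23, adjusted p = 0.564). The 3 leukocyte miRNAs hsa-miR-142-3p, hsa-miR-142-5p and hsa-miR-223-3p summed to 7.53 to 10.1 CPM in the RSL3 group and 7.73 to 9.04 CPM in the combined treatment group. Of these, hsa-miR-223-3p was at 0.70 to 2.46 CPM under RSL3 and at 0.16 to 0.24 CPM under the combined treatment, and hsa-miR-142-3p at 1.57 to 4.20 and at 3.76 to 5.80 CPM. The part of these differences in the miR-26 values was not tested. These 5 miRNAs were picked after the counts had been seen.

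A miRNA is cut from a hairpin transcript, and each side of the hairpin can give a mature strand, the 5p and the 3p arm. The arm loaded into an Argonaute protein guides it to mRNAs that pair with the seed, bases 2 to 8 from the 5′ end. miR-26 arises from 3 hairpins that lie in introns of the genes CTDSPL, CTDSP2 and CTDSP1. These encode small phosphatases that remove phosphates from the tail of RNA polymerase II and from the retinoblastoma protein RB1. The 5p arms are known to repress EZH2, the methyltransferase that silences genes through histone H3, and they belong to the miRNAs that the oncoprotein MYC holds down.

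The mature sequences are shown because they set which rows of the table can be told apart. They are from RefSeq (GRCh38.p14), 5′ to 3′, with the seed in capitals.
hsa-miR-26a-5p: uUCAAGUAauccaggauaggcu
hsa-miR-26b-5p: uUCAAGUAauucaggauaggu
hsa-miR-26a-1-3p: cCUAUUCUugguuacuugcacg
hsa-miR-26a-2-3p: cCUAUUCUugauuacuuguuuc
hsa-miR-26b-3p: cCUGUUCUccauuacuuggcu
The 5p arms of miR-26a and miR-26b have the same seed. Over their shared length they differ at 2 bases, counted from 1 at the 5′ end of miR-26a-5p, C11U and C21U, and miR-26a-5p is 22 nt long against 21 nt for miR-26b-5p. The 3p arms of the 2 miR-26a hairpins share their own seed and differ at 5 bases, G11A, C19U, A20U, C21U and G22C, whereas the seed of hsa-miR-26b-3p is found in no other human miRNA of RefSeq. The further human miRNAs with the 5p seed, hsa-miR-1297 and hsa-miR-4465, have no row in the deposited table and could not be analysed.

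The hairpins are shown because miR-26a-5p has more than 1 source, and both arms are in capitals.
MIR26A1: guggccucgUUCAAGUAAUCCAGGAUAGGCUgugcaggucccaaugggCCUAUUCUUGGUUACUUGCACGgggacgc
MIR26A2: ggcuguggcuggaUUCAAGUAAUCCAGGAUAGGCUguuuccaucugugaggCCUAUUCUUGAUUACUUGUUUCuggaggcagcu
MIR26B: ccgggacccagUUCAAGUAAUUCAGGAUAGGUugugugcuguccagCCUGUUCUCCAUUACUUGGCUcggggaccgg
MIR26A1 lies at chr3:37969404-37969480 on the plus strand, in intron 5 of the 7 introns of CTDSPL (transcript CTDSPL-201, GENCODE 29, GRCh38). MIR26A2 lies at chr12:57824609-57824692 on the minus strand, in intron 5 of the 7 introns of CTDSP2. MIR26B lies at chr2:218402646-218402722 on the plus strand, in intron 4 of the 6 introns of CTDSP1, which is the shortest of the 3 host introns at 629 bp against 3524 bp in CTDSPL and 2026 bp in CTDSP2. Each hairpin is on the strand of its host. The identical 5p arm of MIR26A1 and MIR26A2 makes the single row hsa-miR-26a-5p, so its reads cannot be assigned to a host, and only the 3p arms tell these hairpins apart. Transcripts of the host genes were not measured in small RNA.

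Adding IFN-γ to RSL3 left all 4 miR-26 arms short of a call. The 5p arms carried nearly all reads of the family, with hsa-miR-26a-5p the 41st and hsa-miR-26b-5p the 106th most abundant of 1596 miRNAs, while hsa-miR-26b-3p ranked 571st and hsa-miR-26a-2-3p 666th. The fitted fold of the combined treatment over RSL3 alone was 0.816 for hsa-miR-26a-5p, 0.964 for hsa-miR-26b-5p, 1.3 for hsa-miR-26b-3p and 0.675 for hsa-miR-26a-2-3p. The edgeR quasi-likelihood test called 0 of these 4, none with an unadjusted p under 0.05, and DESeq2 and limma also called 0. Across all 758 miRNAs tested, 4.75% were called at an adjusted p under 0.05. The groups overlapped for all 4 members, against 29.8% of the tested miRNAs without overlap between groups.

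hsa-miR-26a-5p, the arm that carries most of the family's reads, stood at 4377, 2690.3 and 4367 CPM in RSL3 replicates 1 to 3 and at 2731, 2796 and 3809 CPM in the combined treatment group. RSL3 replicate 2 lay below every library of the combined treatment group, and the other RSL3 libraries lay above them. The group means were 3811 ± 971 and 3112 ± 605 CPM (SD, n = 3), and the log2 fold change was -0.29 (SE 0.262, 95% interval -0.87 to 0.29, edgeR adjusted p = 0.516). The miRNA made up 0.246% to 0.440% of a library's counts. Of the tested miRNAs, 33.5% had a lower log2 fold change. At 11298 to 24944 reads per library the counting intervals were narrow beside this spread, at 2642 to 2739 CPM for RSL3 replicate 2 and 4320 to 4435 CPM for RSL3 replicate 1.

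hsa-miR-26b-5p, the arm with the same seed from the hairpin in CTDSP1, stood at 605, 347 and 634 CPM in the RSL3 group and at 448, 526 and 554 CPM in the combined treatment group. All 3 combined libraries fell between the RSL3 libraries, with RSL3 replicate 2 again the lowest. The means were 529 ± 158 and 509 ± 54.9 CPM (SD, n = 3), and the log2 fold change was -0.053 (SE 0.268, 95% interval -0.65 to 0.54, edgeR adjusted p = 0.910). A smaller fold change was found for 5.41% of the tested miRNAs. The interval still spans folds from 0.638 to 1.45, and changes within these limits cannot be told from none with these libraries.

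The 3p arms, the strands discarded more often, were rare. hsa-miR-26b-3p stood at 2.76, 7.83 and 2.80 CPM in the RSL3 group (14, 35 and 16 reads) and at 5.80, 5.98 and 5.49 CPM in the combined treatment group (24, 35 and 34 reads). RSL3 replicate 2, the lowest for both 5p arms, was the highest for this arm, and its counting interval of 5.45 to 10.9 CPM did not meet those of RSL3 replicate 1 (1.51 to 4.64 CPM) and replicate 3 (1.60 to 4.55 CPM). The means were 4.46 ± 2.91 and 5.76 ± 0.248 CPM (SD, n = 3), and the log2 fold change was 0.38 (SE 0.474, 95% interval -0.67 to 1.43, edgeR adjusted p = 0.659). Without RSL3 replicate 2 the log2 fold change was 1.03 (95% interval 0.055 to 2.0, unadjusted p = 0.0405), still with an edgeR adjusted p of 0.157, within a range of 0.157 to 0.925 over the alternatives. Leaving out RSL3 replicate 1 or 3 instead gave 0.14 and 0.11.

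hsa-miR-26a-2-3p, the 3p arm of the hairpin in CTDSP2, stood at 3.75, 4.25 and 2.63 CPM in the RSL3 group (19, 19 and 15 reads) and at 1.69, 3.25 and 2.10 CPM in the combined treatment group (7, 19 and 13 reads). Combined treatment replicate 2 lay above RSL3 replicate 3, so the groups overlapped. The means were 3.54 ± 0.832 and 2.35 ± 0.806 CPM (SD, n = 3), and the log2 fold change was -0.57 (SE 0.476, 95% interval -1.62 to 0.49, edgeR adjusted p = 0.487). Its counterpart from the hairpin in CTDSPL, hsa-miR-26a-1-3p, which is no member, was at 3.72 ± 0.606 and 4.22 ± 0.305 CPM (SD, n = 3), with a log2 fold change of 0.18 (SE 0.401, edgeR adjusted p = 0.806). With 92 reads of hsa-miR-26a-2-3p and 158 of hsa-miR-26b-3p in all 6 libraries, folds down to 0.325 and up to 2.7 lay within the intervals of these arms.

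**Figure D1:**
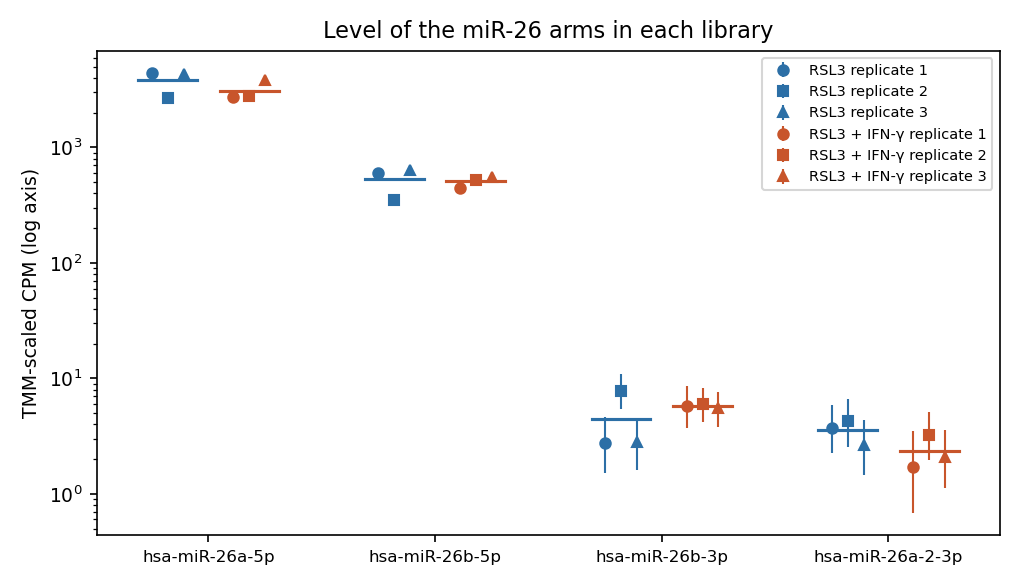
Level of the 4 miR-26 arms in each library, as TMM-scaled CPM on a log axis, with the RSL3 group in blue and the combined treatment group in orange, the replicate number as the marker shape, a horizontal line at the group mean and vertical lines for the 95% Poisson interval of the count. The 5p arms lie between 347 and 4377 CPM and the 3p arms between 1.69 and 7.83 CPM, and in each arm the groups overlap.

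These directions depend on the scaling for the 5p arms. With library totals in place of TMM factors the log2 fold change of hsa-miR-26a-5p was 0.089 and that of hsa-miR-26b-5p 0.34, neither called, but the median of all tested miRNAs also moved with this scaling, to 0.33 in place of -0.038. Relative to the median hsa-miR-26a-5p stood at -0.26 with TMM factors and at -0.25 with library totals, and hsa-miR-26b-5p at -0.016 and 0.004. Across the 679 tested miRNAs with a RefSeq sequence, the log2 fold change rose with GC content (Spearman's rho 0.469, a description over miRNAs that share libraries), around a median GC content of 50%. GC content is 40.9% in hsa-miR-26a-5p, 33.3% in hsa-miR-26b-5p, 31.8% in hsa-miR-26a-2-3p and 47.6% in hsa-miR-26b-3p. With this trend removed in each library, the log2 fold change was 0.043 for hsa-miR-26a-5p, 0.16 for hsa-miR-26a-2-3p and 0.45 for hsa-miR-26b-3p. That of hsa-miR-26b-5p became 0.63 (unadjusted p = 0.0267, edgeR adjusted p = 0.158), against a range of adjusted p of 0.158 to 0.984 over its alternatives.

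**Figure D2:**
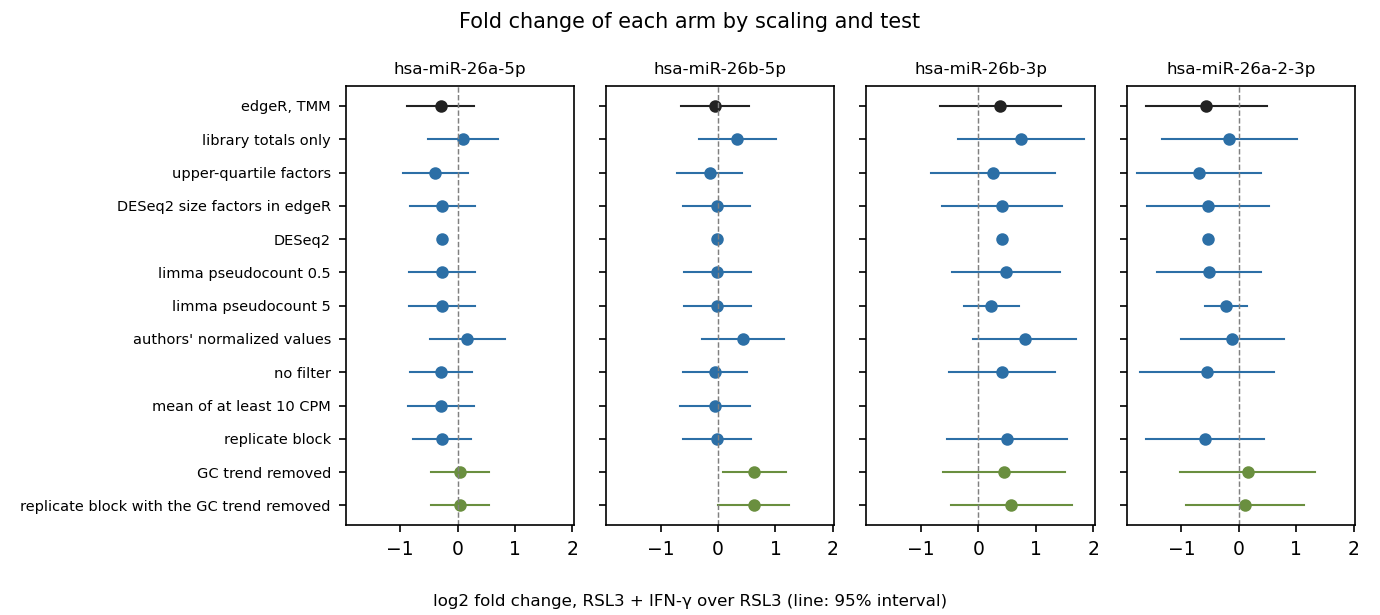
Log2 fold change of each miR-26 arm, combined treatment over RSL3 alone, under each scaling, test and filter, with the test used for the report in black, the alternatives in blue, those with the GC trend removed in green and lines for the approximate 95% interval (none drawn for DESeq2). The interval excludes 0 for hsa-miR-26b-5p with the GC trend removed, and the 3p arms have no point under the filter of at least 10 CPM.

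Reads of one arm divided by reads of another in the same library do not depend on the scaling between libraries. Such a ratio can still carry the GC trend where GC contents differ, as at 40.9% in miR-26a-5p and 33.3% in miR-26b-5p. With the trend removed in each library, the log2 fold changes of these arms were 0.043 and 0.633. The part of the trend in their ratio was not tested. The family was dominated by miR-26a-5p in every library, with 7.24, 7.75 and 6.89 reads for each read of miR-26b-5p in the RSL3 group and 6.09, 5.31 and 6.88 in the combined treatment group. All 3 combined libraries lay below the RSL3 libraries, although the nearest of them, both replicate 3, were 6.89 and 6.88. The mean log2 ratio was 2.86 ± 0.084 in the RSL3 group and 2.60 ± 0.186 in the combined treatment group (SD, n = 3), a difference of -0.27 (exact permutation test, two-sided, p = 0.1). That is the smallest p that 3 libraries against 3 allow, and the Benjamini-Hochberg adjusted p over the 4 ratios compared was 0.4. The share of miR-26a-5p in the sum of both 5p arms ran from 87.3% to 88.6% under RSL3 and from 84.2% to 87.3% under the combined treatment, with exact 95% intervals of 86.9% to 87.7% for both libraries numbered 3, which thus could not be separated. No source used here says how reads matching both arms were counted, and the split between the rows is uncertain.

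The sum of both 5p arms is free of this split only if each read was counted once, which no source used here says. Other rows, such as hsa-miR-365a-3p and hsa-miR-365b-3p, had the same log2 fold change (-1.23) and edgeR adjusted p (0.0663). Some reads may thus have been entered in more than 1 row. Whether this holds for the 5p arms of miR-26 was not tested. The sum was 4340 ± 1128 CPM in the RSL3 group and 3621 ± 646 CPM in the combined treatment group (SD, n = 3). The log2 fold change of the summed row was -0.26 (SE 0.261, 95% interval -0.84 to 0.32, edgeR adjusted p = 0.573). The amount of UCAAGUA-seed guide in these cells was therefore not shown to differ between the treatments.

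The share of miR-26b reads from the 3p arm was 0.455%, 2.20% and 0.440% in the RSL3 group and 1.28%, 1.12% and 0.981% in the combined treatment group. RSL3 replicate 2 stood above all other libraries and RSL3 replicates 1 and 3 below them, so the combined libraries fell inside the range of the RSL3 group. The difference in mean log2 ratio was 0.55 (exact permutation test, two-sided, p = 0.4, adjusted p = 0.533), and with 1 library left out it was 1.31 without RSL3 replicate 2, 0.175 without RSL3 replicate 1 and 0.149 without RSL3 replicate 3. For miR-26a, with the 3p arms of both hairpins added, the share under RSL3 was 0.184%, 0.274% and 0.144%, and under the combined treatment 0.221%, 0.274% and 0.157%. Replicate 2 was the highest and replicate 3 the lowest in each group. The difference in mean log2 ratio was 0.13 (exact permutation test, two-sided, p = 0.8). Over 181 hairpins with enough reads in both arms, the log2 ratio of the rarer to the other arm was centred on each hairpin's mean. Its median was -0.052, -0.015 and -0.011 in RSL3 replicates 1 to 3 and -0.023, 0.172 and 0.104 in the combined treatment group.

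The 3p arms of the miR-26a hairpins each come from 1 host, CTDSP2 or CTDSPL. Whether their ratio follows the output of the hosts was not tested, and their GC contents differ, at 31.8% and 45.5%. There were 0.864, 1.36 and 0.714 reads of hsa-miR-26a-2-3p for each read of hsa-miR-26a-1-3p in the RSL3 group and 0.389, 0.731 and 0.542 in the combined treatment group. The combined library was the lower in 3 of 3 same-numbered pairs, but the groups overlapped at 0.714 and 0.731. The difference in mean log2 ratio was -0.78 (exact permutation test, two-sided, p = 0.2, adjusted p = 0.4). At 7 to 26 reads per value these ratios carry wide counting error, and the lowest share of hsa-miR-26a-2-3p in the sum, 28.0%, has an exact 95% interval of 12.1% to 49.4%.

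**Figure D3:**
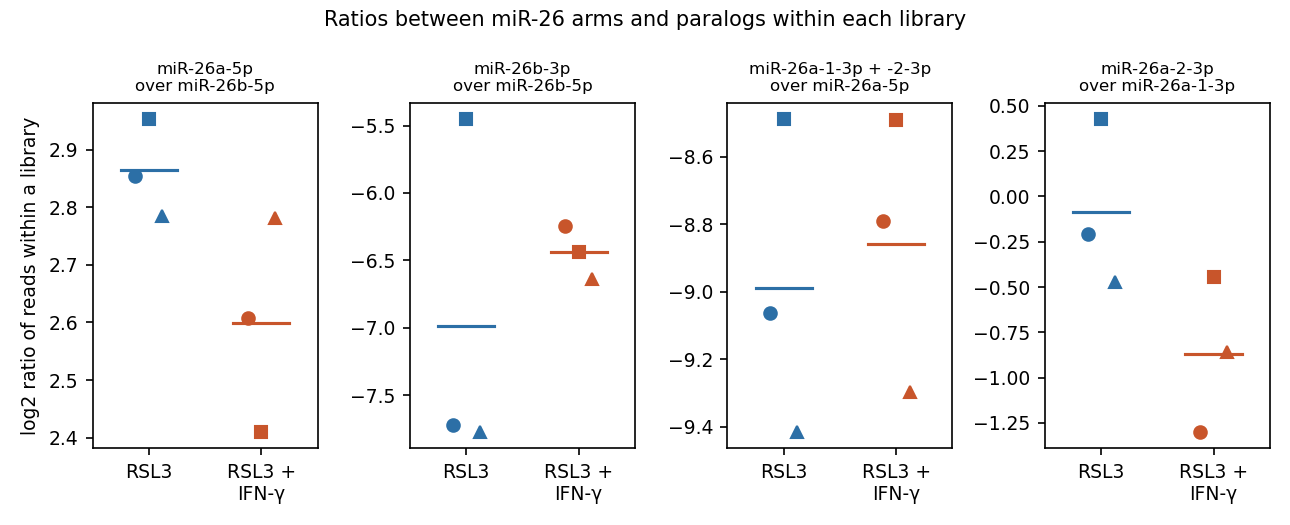
Log2 ratio of reads between miR-26 arms within each library (vertical axes differ between panels), with the RSL3 group in blue, the combined treatment group in orange, lines at the group means and the replicate number as the marker shape (circle 1, square 2, triangle 3). In the first panel the orange points lie below the blue ones, with the triangles almost level at 6.89 and 6.88 reads to 1, and in the other panels the groups overlap.

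Of the hairpins compared here, few favoured 1 arm as strongly as miR-26a. Over all libraries, 217 of 110630 miR-26a reads, or 0.196%, came from the 3p arms (exact 95% interval 0.171% to 0.224%, for counting error only). Of 307 hairpins with both arms in the table and at least 100 reads, 16 had a lower share from their rarer arm, and the median share was 5.05%. miR-26b gave 0.943% from its 3p arm (158 of 16761 reads, 0.802% to 1.1%), and 61 of the 307 hairpins had a lower share. These shares are descriptions of the pooled libraries. The 307 leave out hairpins without a row for their rarer arm. They also leave out those whose arms are numbered differently, as in miR-26a itself, so its rank among all hairpins is not known.

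Across the 6 libraries each 5p arm lay closer to the other than to most abundant miRNAs. Likeness was taken as the root mean square difference of centred log2 levels over the 6 libraries. Each arm was compared with the 204 other miRNAs whose mean reached 100 CPM. The difference was 0.177 between hsa-miR-26a-5p and hsa-miR-26b-5p, against a median of 0.458 for hsa-miR-26a-5p and 0.452 for hsa-miR-26b-5p. This made miR-26b-5p the 4th nearest to miR-26a-5p and miR-26a-5p the 8th nearest to miR-26b-5p. The nearest profiles to hsa-miR-26a-5p outside the family were hsa-let-7f-5p at 0.072, hsa-miR-30e-3p at 0.155, hsa-miR-181a-3p at 0.171, hsa-miR-107 at 0.189 and hsa-miR-99a-5p at 0.2. Those to hsa-miR-26b-5p were hsa-let-7e-5p at 0.109, hsa-miR-105-5p at 0.137, hsa-let-7f-5p at 0.149, hsa-miR-339-5p at 0.164 and hsa-miR-107 at 0.176. let-7f and let-7e belong to the let-7 family, which is known for repressing RAS and HMGA2. The distances are over 6 libraries that share depth and composition. How reads matching both 5p arms were counted is not known, and the part of such reads in the likeness of these arms was not tested.

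The 5p arms belong to a wider set of miRNAs that MYC represses, listed here as 27 mature miRNAs of the let-7, miR-15/16, miR-22, miR-26, miR-29, miR-30, miR-34, miR-146, miR-150, miR-195 and miR-497 families. Of the 27, all of which were tested, 1 rose, 0 fell and 26 did not pass, beside 4.75% of all tested miRNAs called in either direction. The median log2 fold change was -0.061, beside -0.038 over all tested miRNAs, and 8 of the 27 did not overlap between groups, a share close to the 29.8% of all tested miRNAs. The riser was hsa-miR-22-3p, from 1906 ± 152 to 4277 ± 286 CPM (SD, n = 3), with a log2 fold change of 1.17 (SE 0.209, edgeR adjusted p = 0.0184), and it is also one of the miRNAs that the study singled out on these samples, so it is not independent evidence. The 5 most abundant members did not pass. Among them hsa-let-7i-5p, at 72617 CPM under RSL3, had a log2 fold change of -0.80 (edgeR adjusted p = 0.0890), hsa-miR-30d-5p -0.91 (0.0750), hsa-miR-30a-5p -0.71 (0.198), hsa-miR-146a-5p 0.20 (0.667) and hsa-let-7a-5p 0.27 (0.549). With the replicate number as a block the list had 2 calls, since hsa-miR-30d-5p was then called as fallen (log2 fold change -0.94, edgeR adjusted p = 0.0304). It was also called as fallen with DESeq2 (adjusted p = 0.0345) and with no filter (edgeR adjusted p = 0.0140), where hsa-let-7i-5p was called as fallen as well (edgeR adjusted p = 0.0429). hsa-let-7b-5p and hsa-miR-29b-3p were instead called as risen with library totals (edgeR adjusted p = 0.0277 and 0.0383) and with the authors' normalized values (limma adjusted p = 0.0256 and 0.0264). With the GC trend removed, hsa-miR-29b-3p was called as risen (edgeR adjusted p = 0.0492). The call of hsa-miR-22-3p was lost when RSL3 replicate 1, combined treatment replicate 2 or combined treatment replicate 3 was left out. The list then had 0 calls (with 3, 6 and 4 members at an unadjusted p under 0.05). Over all tested miRNAs 0 of 810, 6 of 787 and 7 of 782 were called in these settings. Without combined treatment replicate 1 the list had 4 calls, with hsa-let-7i-5p, hsa-miR-30a-5p and hsa-miR-30d-5p called as fallen. There 95 of 815 tested miRNAs were called. Leaving out RSL3 replicate 2 gave 2 calls, as hsa-let-7g-5p was then called as fallen (log2 fold change -0.894, edgeR adjusted p = 0.0467). In that setting 55 of 816 tested miRNAs were called.

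**Figure D4:**
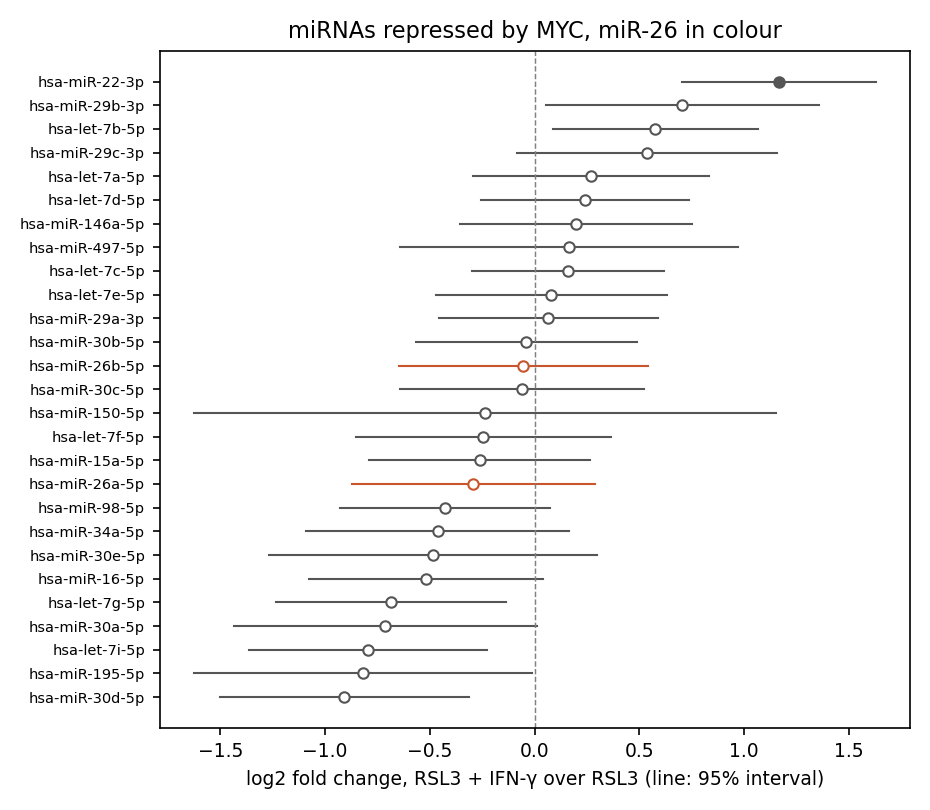
Log2 fold change of the 27 MYC-repressed miRNAs, combined treatment over RSL3 alone, with lines for the approximate 95% interval, a filled point for the member called and the miR-26 arms in orange. The 5p arms of miR-26 sit inside the list at -0.29 and -0.053, below hsa-miR-22-3p at 1.17 and above hsa-miR-30d-5p at -0.91.

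The list of miRNAs known to repress EZH2 holds both 5p arms of miR-26 and 4 others, of which 3 were tested. Of these 3, 0 passed the edgeR test, beside 4.75% of all tested miRNAs, 0 had an unadjusted p under 0.05, and DESeq2 and limma called 0. hsa-miR-101-3p, which like miR-26a-5p is abundant here, was at 4148 ± 787 CPM in the RSL3 group and 3552 ± 1209 CPM in the combined treatment group (SD, n = 3), with a log2 fold change of -0.22 (edgeR adjusted p = 0.662). That of hsa-miR-138-5p was 0.33 (edgeR adjusted p = 0.644). hsa-miR-124-3p, the main neuronal miRNA, had 1 to 94 reads per library and a log2 fold change of -1.67 (edgeR adjusted p = 0.344). It was at 6.30 ± 8.86 CPM in the RSL3 group and 1.91 ± 1.76 CPM in the combined treatment group (SD, n = 3), so the SD under RSL3 exceeded the mean. With no filter on low counts it was called as fallen, beside 106 of 1596 miRNAs called in that setting. hsa-miR-214-3p, with 2 to 21 reads, was not tested.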

How the data were processed

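Small RNA libraries of melanoma cells were sequenced by the authors and reads counted per mature miRNA. Tools named in the submitters' processing notes are edgeR, bcl2fastq and Bowtie 1.1.1, with the build GRCh38. The study's methods name a directional RNA kit, whereas the labels name a small RNA kit. The deposited raw counts were used for each library. The deposited normalized signal, in which the authors scaled each library to a total 1.0306 to 1.1629 times smaller than its sum over the table, entered 1 alternative. The authors' columns of fold change and p-value per miRNA were not used.

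The test of the counts was edgeR's quasi-likelihood test (version 4.0.16 in R 4.3.3, two-sided, TMM factors from 0.861 to 1.33) over the 758 of 1596 miRNAs with enough reads by its filter (minimum count 10, minimum total 15). All 4 miR-26 members passed. P-values were adjusted by Benjamini-Hochberg over the 758 and called under 0.05. Alternatives used DESeq2 1.42.0, limma 3.58.1 (0.5 or 5 CPM added, or 1 to the authors' signal), other scalings, filters, a GC correction (89.3% of rows had a RefSeq mature sequence) and each library left out. The 95% intervals of fold changes are approximate, from the test's F statistic. Ratios had 0.5 reads added to each side. Intervals of counts and shares are exact and cover counting error only, since reads without molecular identifiers are not independent molecules.

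Named are all members, hsa-miR-26a-1-3p, the EZH2 list, called and the 5 most abundant MYC-list members, and the 5 nearest profiles per 5p arm. Members and lists were chosen with earlier results of these data known. Replicate numbers are shared by the groups, with no source for what they stand for; after subtracting group means, same-numbered libraries correlated at 0.233, 0.221 and 0.211 across miRNAs, each above the 0.1 taken as pairing, so a fit with the replicate number as a block was also made.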

Additional observations from a re-analysis of the deposited data

How the results depend on the processing

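No alternative called a miR-26 member (0 under all 19), and hsa-miR-26b-3p kept a positive log2 fold change in all 18 of its alternatives. With library totals only, the log2 fold change was 0.089 for hsa-miR-26a-5p and 0.338 for hsa-miR-26b-5p, and with the authors' normalized values 0.168 and 0.432. With the GC trend removed it was 0.043 for hsa-miR-26a-5p, 0.157 for hsa-miR-26a-2-3p and 0.633 for hsa-miR-26b-5p, and with the replicate block as well 0.047, 0.102 and 0.62. With the replicate block alone it was -0.274 for hsa-miR-26a-5p, -0.588 for hsa-miR-26a-2-3p, -0.011 for hsa-miR-26b-5p and 0.50 for hsa-miR-26b-3p, and the block changed no call of a member. Leaving out each library in turn gave -0.51 (without RSL3 replicate 2) to -0.18 (without RSL3 replicate 1) for hsa-miR-26a-5p, -0.883 (without combined treatment replicate 2) to -0.403 (without combined treatment replicate 1) for hsa-miR-26a-2-3p, 0.106 to 1.028 for hsa-miR-26b-3p and -0.298 to 0.065 for hsa-miR-26b-5p, positive without RSL3 replicate 1 (0.059), RSL3 replicate 3 (0.065) or combined treatment replicate 1 (0.019), and -0.085 to 0.38 for the log2 ratio of both miR-26a 3p arms over miR-26a-5p, negative without RSL3 replicate 3 (-0.085) or combined treatment replicate 2 (-0.055). The MYC-repressed list had 1 call, but 3 with library totals, 3 with the authors' normalized values, 3 with no filter, and 2 with DESeq2, the replicate block, the GC trend removed or both of these, and 0 to 4 with a library left out. The calls added by DESeq2, no filter and the block, without or with the GC trend removed, were falls. Those added by library totals, the authors' normalized values and the GC trend removed alone were rises. Calls over all miRNAs moved as well, from 36 to 71 with library totals, 72 with the authors' values, 106 with no filter, 95 with DESeq2 and 82 with the block. They were 22 with the GC trend removed, 24 with the block as well, and 0 to 95 with a library left out. The median log2 fold change of the list was 0.278 with library totals, 0.38 with the authors' normalized values, 0.156 with the GC trend removed and 0.155 with the block as well. Without RSL3 replicate 1 edgeR called no miRNA, with 124 at an unadjusted p under 0.05. The filter of at least 10 CPM left 2 members tested. The cause of these shifts was not tested. Depth gave the 3p arms of the members 7 to 35 reads a library, with wide counting intervals.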
